A study of Homo sapiens with 12 samples.

Results

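The nuclear genes that encode the proteins of the mitochondrial ribosome were followed in SUM149PT cells, an established line from an inflammatory breast cancer, under an AKT inhibitor, an EZH2 inhibitor, both or neither. The members were all gene symbols made of MRPL or MRPS, a number and at most 1 closing letter, restricted to protein-coding genes, which gave 76 of the 23228 genes counted. They comprised 47 MRPL and 29 MRPS symbols on 21 chromosomes, and all 76 passed the filter on low counts. The symbols MRPL42P5 and MRPL45P2, of pseudogenes, fell outside the rule.

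Polyadenylated RNA was sequenced from 4 groups of 3 libraries, labelled A, B and C. Ipatasertib blocks the AKT kinases and tazemetostat blocks the histone methyltransferase EZH2, and each was given at 5 µM. Tazemetostat, or the solvent DMSO, was present from day -5, while ipatasertib was added only for the last 24 h, in medium with 2% serum. The groups were therefore DMSO alone, ipatasertib (with the DMSO pretreatment), tazemetostat (from day -5), and the combination (tazemetostat from day -5, ipatasertib for 24 h). Every group is the same single cell line, and the labels do not say that replicates were separate cultures, so p-values reflect only how far these samples vary, and that variation may be technical.

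Mitochondria keep a small genome whose messenger RNAs code for core subunits of the respiratory chain. They are translated inside the organelle by a ribosome of bacterial ancestry, whose RNAs come from the mitochondrial genome and whose proteins are all made in the cytosol from nuclear genes and imported. The large subunit joins amino acids and releases the chain towards the inner membrane, and the small subunit decodes the messenger. Many of the proteins have a bacterial counterpart, and others were added in mitochondria.

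Of the 76 members, 49 encode proteins of the large subunit and 26 of the small subunit. MRPS18A and MRPS30 carry an S symbol but belong to the large subunit. MRPS36 is now known as a subunit of the 2-oxoglutarate dehydrogenase complex, not of the ribosome. It meets the rule and is counted among the 76, but in neither subunit. A bacterial counterpart is known for 45 of the 75 ribosomal members and none for 30.

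The stretches upstream of 6 of these genes are shown as examples, chosen with their changes known. They are not strictly the ends of the range, as MRPL4, not shown, fell more than MRPS12 with the combination. MRPL12, MRPL38 and MRPS12 were among the most reduced members, and MRPS14, MRPL45 and MRPL43 were among the few that rose. Each line holds the 250 bases before the gene start on the gene's own strand, 5′ to 3′, from RefSeq with build GRCh38.p14. Capitals mark matches, on either strand, to 5 motifs of factors that are known regulators of mitochondrial or growth genes. The motifs were the ETS motif CCGGAAG of the GABP class, the YY1 motif AAGATGGC, the E-box CACGTG bound by MYC, the palindromic NRF1 motif and its shorter form TGCGCA, which can share bases with the long form but is not contained in it.
MRPL12: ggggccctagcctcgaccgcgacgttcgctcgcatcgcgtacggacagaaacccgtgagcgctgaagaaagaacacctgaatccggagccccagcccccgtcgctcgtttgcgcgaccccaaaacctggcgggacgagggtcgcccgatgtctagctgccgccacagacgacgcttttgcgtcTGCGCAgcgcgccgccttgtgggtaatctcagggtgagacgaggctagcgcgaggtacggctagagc
MRPL38: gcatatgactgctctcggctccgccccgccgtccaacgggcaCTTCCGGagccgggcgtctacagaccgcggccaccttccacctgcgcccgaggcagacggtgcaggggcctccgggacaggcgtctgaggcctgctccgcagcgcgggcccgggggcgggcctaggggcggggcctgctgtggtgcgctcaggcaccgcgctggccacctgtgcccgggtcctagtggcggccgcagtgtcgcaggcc
MRPS12: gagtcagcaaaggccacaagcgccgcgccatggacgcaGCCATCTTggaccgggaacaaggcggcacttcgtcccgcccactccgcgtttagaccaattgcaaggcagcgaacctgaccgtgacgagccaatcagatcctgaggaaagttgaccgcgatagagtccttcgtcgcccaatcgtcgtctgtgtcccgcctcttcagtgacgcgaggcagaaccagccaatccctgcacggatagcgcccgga
MRPS14: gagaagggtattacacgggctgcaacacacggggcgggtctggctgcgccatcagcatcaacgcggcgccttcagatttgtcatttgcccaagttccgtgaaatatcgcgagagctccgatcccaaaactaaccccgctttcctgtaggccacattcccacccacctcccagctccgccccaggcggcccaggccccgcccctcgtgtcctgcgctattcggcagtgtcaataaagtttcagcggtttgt
MRPL45: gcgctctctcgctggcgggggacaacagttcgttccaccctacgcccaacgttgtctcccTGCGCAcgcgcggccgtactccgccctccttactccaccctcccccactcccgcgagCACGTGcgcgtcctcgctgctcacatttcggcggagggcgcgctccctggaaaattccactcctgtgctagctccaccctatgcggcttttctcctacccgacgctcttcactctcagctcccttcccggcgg
MRPL43: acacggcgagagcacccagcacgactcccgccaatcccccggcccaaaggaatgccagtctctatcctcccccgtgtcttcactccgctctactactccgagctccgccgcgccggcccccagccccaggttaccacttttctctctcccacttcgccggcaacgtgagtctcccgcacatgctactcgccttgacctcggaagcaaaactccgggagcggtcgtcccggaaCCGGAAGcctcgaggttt

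These stretches lie at chr17:81703117-81703366 on the plus strand (MRPL12), chr17:75904885-75905134 on the minus strand (MRPL38) and chr19:38930694-38930943 on the plus strand (MRPS12). For the members that rose they lie at chr1:175023426-175023675 on the minus strand (MRPS14), chr17:38296918-38297167 on the plus strand (MRPL45) and chr10:100987498-100987747 on the minus strand (MRPL43). MRPL38 and MRPL43 each hold the ETS motif, ending 201 and 11 bases before the start. MRPS12 holds the YY1 motif 204 bases before the start, MRPL12 the short NRF1 motif at 61 bases, and MRPL45 that motif at 184 and an E-box at 127 bases. MRPS14 holds none of the 5.

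A RefSeq stretch was matched for 68 of the 76 members. The ETS motif was present in 22 of the 68 (32.4%), against 14.9% of the 9998 stretches of tested genes and 8.82% of all 27305 stretches of that length. For the YY1 motif the shares were 7.35% of members and 1.73% of tested genes, for the short NRF1 motif 17.6% and 11%, for the E-box 10.3% and 8.69%, and for the long NRF1 motif 1.47% and 1.87%. Split by response to the combination, the ETS motif stood in 17 of 53 lower members (32.1%), 1 of 6 higher members and 4 of 9 that did not pass the test. These are matches of letters and no measure of binding.

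Most members were well covered. The lowest count of any member in any library was 19, of MRPS24, whose change with ipatasertib had an SE of 0.25, so that changes as large as those called in other members could not be seen for it. Levels are given as CPM, counts scaled to a common library size, after TMM scaling (the trimmed mean of M-values, which takes most genes as unchanged). Over all libraries the members' mean level ran from 0.895 CPM (MRPS24) to 193 CPM (MRPL51), with a median of 42.9 CPM against 23.3 CPM for all 14874 genes tested. Per kilobase of exon the highest levels were those of MRPL12 (184 CPM per kb), MRPL51 (124) and MRPS18B (101), and the lowest those of MRPS24 (1.14), MRPL42 (4.51) and MRPS18C (4.99). MRPL12 forms the flexible stalk that recruits the translation factors, and is known to be present in several copies per ribosome. MRPS24, the counterpart of bacterial S3, shares 77.0% of its exon bases with a readthrough transcript, URGCP-MRPS24, so its low count is uncertain.

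Depth was 22355242 to 49970540 gene counts per library. The share of reads that the counting assigned to no gene was taken over all 5 of its summary lines. These lines were not separated, so such reads need not lie outside genes. Unassigned reads made up 31.0% to 32.9% in the DMSO libraries and 29.8% to 30.7% in the tazemetostat libraries. They made up 37.4% to 38.6% with ipatasertib and 35.7% to 38.0% in the combination. This share moved with ipatasertib, and its part in the results below was not tested. The epithelial genes EPCAM and KRT8 stood at 323 and 838 CPM with DMSO. Of the hormone receptor genes, PGR had 10 counts over all 12 libraries and ESR1 had 1842 (4.01 CPM with DMSO). The basal genes KRT5, KRT14 and KRT17 stood at 633, 22.8 and 592.5 CPM with DMSO and 54.6, 2.60 and 96.1 CPM with the combination. TP63, also basal, stood at 15.9 CPM with DMSO and 27.2 CPM with the combination. The 7 markers of immune, endothelial and stromal cells summed to 15.4 to 17.7 CPM in DMSO libraries, 16.8 to 18.2 in ipatasertib, 9.72 to 10.6 in tazemetostat and 13.7 to 15.5 in combination libraries. Without CD14 the sums were 1.84 to 2.68, 4.09 to 5.24, 1.84 to 2.39 and 6.27 to 8.20 CPM, in that order. CD3E had 7 counts in all. Of the 6 markers tested, 4 rose and 1 fell with ipatasertib, 2 fell with tazemetostat, and 3 rose and 2 fell with the combination. Their part in the results was not tested.

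Tazemetostat A and combination B deviated from the remaining replicates, in the members and in all genes alike. Over the members, the chi-square statistic per degree of freedom of a pair of replicates was 10.8 to 14.2 for pairs with tazemetostat A and 15.4 to 21.8 for pairs with combination B. In the other pairs it was 1.68 to 3.93. Over all genes tested it was 18.1 to 19.9 for pairs with tazemetostat A and 14.9 to 25.5 with combination B. The other pairs then had 2.66 to 6.83. The deviation of both libraries followed the GC content of the transcripts (Spearman 0.77 for tazemetostat A and -0.77 for combination B, over 76 genes that share these libraries). Over all genes with an annotated transcript it was 0.70 and -0.71. Each library was set against the others of its group, so the others deviated too. Over the members the values were 0.81 for combination A, 0.47 for combination C, -0.67 for tazemetostat B and -0.42 for tazemetostat C. Counts of members are therefore given with and without both libraries.

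**Figure D1:**
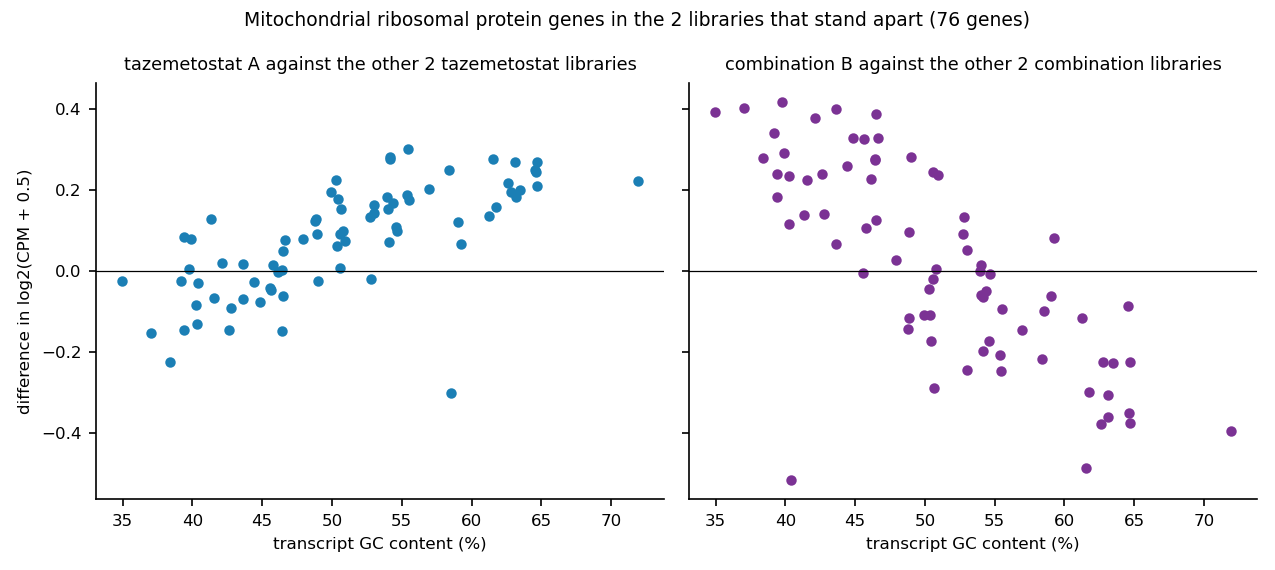
Each point is 1 of the 76 genes. The x axis is the GC content of its transcript in percent and the y axis its level in tazemetostat A (left) or combination B (right) minus the mean of the other 2 libraries of the group, in log2(CPM + 0.5). GC-rich members sit higher in tazemetostat A and lower in combination B.

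The members were mostly lower after ipatasertib, and lower still with the combination, while tazemetostat alone moved some up and some down. Summed over the 76 genes, they took 0.448% ± 0.00356 (SD, n = 3) of gene counts in DMSO, 0.411% ± 0.0110 after ipatasertib, 0.467% ± 0.0155 after tazemetostat and 0.385% ± 0.00706 after the combination. The 3 combination libraries (0.377% to 0.389%) lay below the 3 ipatasertib libraries (0.400% to 0.422%), and these below the 3 DMSO libraries (0.444% to 0.451%). The tazemetostat libraries (0.456% to 0.485%) lay above all of them. On the TMM scale the sums were 4738, 4010, 4703 and 3707 CPM, where the tazemetostat libraries (4607 to 4879) spanned the DMSO libraries (4699 to 4764). In bulk RNA, fewer cells with the transcript and less transcript per cell cannot be told apart.

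**Figure D2:**
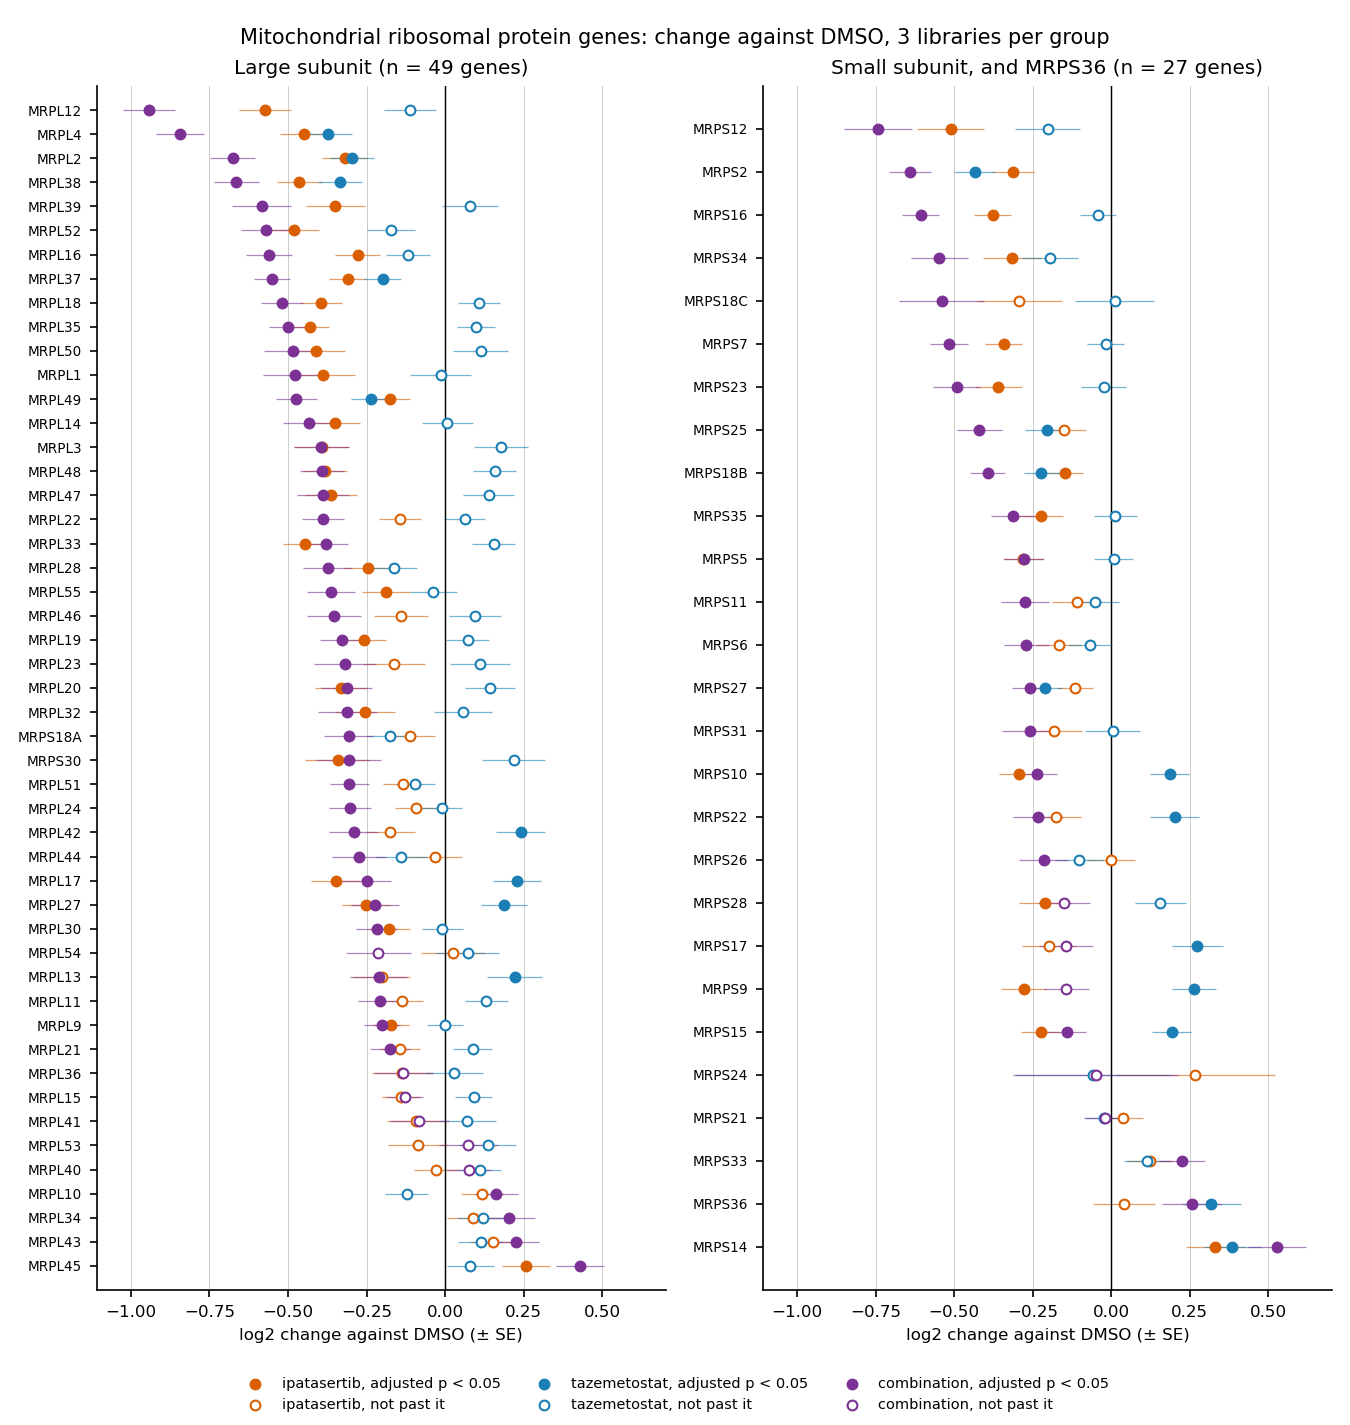
Every gene is a row, with large-subunit genes on the left and small-subunit genes and MRPS36 on the right, ordered by the change with the combination. The x axis is the log2 change against DMSO with its SE from the edgeR fit, and filled points passed an adjusted p of 0.05. Most orange (ipatasertib) and violet (combination) points lie left of 0, with 41 and 58 genes lower, and the blue (tazemetostat) points lie on either side.

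The first question was whether these genes changed with the AKT inhibitor, given for 24 h. With ipatasertib alone, 41 of the 76 members fell and 2 rose at an adjusted p below 0.05 (edgeR, quasi-likelihood, adjusted by Benjamini-Hochberg over 14874 genes). Among all genes 54.1% passed, 28.7% lower and 25.4% higher. The median change of the members was -0.20 on the log2 scale, against -0.01 for all genes, and 66 of 76 lay below 0. Changes were small, from -0.57 to 0.33.

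The stalk protein gene MRPL12 stood at 247, 246 and 235 CPM with DMSO and at 169, 164 and 156 CPM with ipatasertib. The groups did not overlap, and the level was 1.49-fold lower (log2 change -0.57, SE 0.08, edgeR adjusted p = 8.5e-06). In the GENCODE v29 annotation, 68.2% of its exon bases are shared with AC139530.2, and 69.9% of those of MRPL38 with AC087289.2 and AC087289.3, so the counts of both are uncertain.

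MRPL35, a large-subunit protein with a bacterial counterpart, went from 80.7, 85.3 and 85.1 CPM to 64.5, 60.9 and 60.7 CPM, without overlap (log2 change -0.43, SE 0.06, edgeR adjusted p = 7.45e-06). MRPL33, a small protein also kept from bacteria, went from 44.4, 43.8 and 46.4 CPM to 35.0, 31.8 and 31.6 CPM (log2 change -0.45, SE 0.07). MRPS16, a small-subunit protein whose loss causes a human deficiency of oxidative phosphorylation, went from 148, 131 and 134 CPM to 107, 106 and 105 CPM (log2 change -0.38, SE 0.06). In each of these the highest ipatasertib library stayed below the lowest DMSO library.

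MRPL38 and MRPL52 belong to the central protuberance, the crest of the large subunit. MRPL38 went from 57.1, 57.3 and 58.5 CPM to 43.8, 40.3 and 41.1 CPM (log2 change -0.46, SE 0.07), and MRPL52 from 20.9, 20.4 and 19.5 CPM to 14.8, 15.2 and 13.6 CPM (log2 change -0.48, SE 0.08). Across MRPS16, MRPL33, MRPL38 and MRPL52 the edgeR adjusted p ran from 1.83e-05 to 4.28e-05. MRPS12, the decoding-site protein of the small subunit, was at 43.9, 46.5 and 42.9 CPM with DMSO and 32.8, 30.2 and 30.4 CPM with ipatasertib (log2 change -0.51, SE 0.11, edgeR adjusted p = 0.000431).

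The 2 members that rose were MRPS14 and MRPL45. MRPS14, of the head of the small subunit, was at 15.0, 14.9 and 14.6 CPM with DMSO and 19.6, 17.8 and 18.5 CPM with ipatasertib (log2 change 0.33, SE 0.09, edgeR adjusted p = 0.0058). MRPL45, which lies at the exit of the peptide tunnel and ties the ribosome to the inner membrane, was at 37.3, 34.9 and 35.5 CPM and then 44.6, 42.3 and 41.7 CPM (log2 change 0.26, SE 0.08, edgeR adjusted p = 0.00784). Neither gene's groups overlapped. MRPL45 has 2 named pseudogenes, and how the authors' counting treated reads shared with them is not given in the sources used here.

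Both subunits and both origins were involved. In the large subunit 28 of 49 members fell and 1 rose, and in the small subunit 13 of 26 fell and 1 rose, with medians of -0.20 and -0.21. Members with a bacterial counterpart fell in 28 of 45 cases and those without in 13 of 30. In the central protuberance 6 of 8 fell, with a median of -0.36, in the tunnel exit 2 of 7 fell and 1 rose, and in the stalk 1 of 5 fell, which was MRPL12. The differences between these groups were not tested. Of the 40 members with no named pseudogene and at most 50% of their exon bases shared with another gene, 22 fell and 1 rose.

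These counts are relative to TMM scaling. Scaling by total counts alone left 25 members lower and 6 higher with ipatasertib, beside 2987 and 5113 of all genes. It shifted the all-gene median by 0.12 for ipatasertib, 0.07 for tazemetostat and 0.14 for the combination. Of all genes called with ipatasertib, 63.1% were then higher, against 46.9% with TMM, and for tazemetostat and the combination the shares were 69.6% against 54.6% and 62.6% against 51.4%. With tazemetostat A and combination B left out of the shared fit, 53 members were lower and 5 higher, and 4678 of 15002 genes were lower and 4698 higher.

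Tazemetostat against DMSO shows the effect of blocking EZH2 alone. Here 9 members fell (11.8%) and 11 rose (14.5%), while 46.0% of all genes passed, 20.9% lower and 25.1% higher. In both directions the members were thus called less often than genes in general. The median of the members was 0.04, beside 0.02 for all genes, and the changes ran from -0.43 to 0.38.

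MRPS2, the counterpart of bacterial S2, had the smallest adjusted p among those that fell. It was at 74.6, 71.5 and 71.3 CPM with DMSO and 57.1, 52.1 and 51.7 CPM with tazemetostat (log2 change -0.43, SE 0.07, edgeR adjusted p = 2.63e-05). MRPL4, whose extension lines the peptide tunnel, went from 106, 98.2 and 104 CPM to 87.2, 73.4 and 77.4 CPM (log2 change -0.37, SE 0.08, edgeR adjusted p = 0.000521). MRPL2, a core protein near the site of peptide bond formation, went from 61.5, 59.3 and 59.3 CPM to 53.3, 45.4 and 48.2 CPM (log2 change -0.30, SE 0.07, edgeR adjusted p = 0.00209). For all 3 genes every tazemetostat library lay below every DMSO library, and tazemetostat A was the highest of its group.

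MRPL38, at 51.2, 43.6 and 42.3 CPM, changed by -0.34 (SE 0.07). MRPS18B, of the small subunit, went from 179, 175 and 175 CPM to 161, 145 and 148 CPM (log2 change -0.22, SE 0.06), and MRPS27, a protein added in mitochondria, from 88.5, 88.9 and 87.7 CPM to 76.8, 77.7 and 74.5 CPM (log2 change -0.21, SE 0.06). Their edgeR adjusted p-values were 0.000681, 0.00311 and 0.00451. MRPL37, MRPL49 and MRPS25 completed the 9.

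Of the members that rose, MRPS14 stood at 20.1, 19.2 and 18.9 CPM, above all DMSO libraries (log2 change 0.38, SE 0.09, edgeR adjusted p = 0.00208). MRPS9, whose tail reaches the transfer RNA in the small subunit, went from 24.5, 24.7 and 26.4 CPM to 29.6, 31.6 and 29.5 CPM (log2 change 0.26, SE 0.07, edgeR adjusted p = 0.00465). MRPS36, the dehydrogenase subunit, was at 17.04, 14.7 and 16.7 CPM and then 20.9, 18.6 and 20.8 CPM (log2 change 0.32, SE 0.09, edgeR adjusted p = 0.00964). MRPS17 went from 25.6, 26.7 and 25.6 CPM to 31.4, 30.6 and 32.1 CPM (log2 change 0.27, SE 0.08), MRPL42 from 73.3, 73.1 and 76.5 CPM to 78.7, 94.2 and 90.1 CPM (0.24, SE 0.08), and MRPS15 from 86.6, 90.6 and 91.6 CPM to 109, 94.8 and 103 CPM (0.19, SE 0.06). The edgeR adjusted p of the last 3 was 0.0104, 0.0152 and 0.0153. None of these 6 genes overlapped between the groups.

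Several of these rises did not pass once any of several libraries was left out. That of MRPS36 did not pass without DMSO B or tazemetostat C, and that of MRPS17 without DMSO A or tazemetostat C. MRPL42 did not pass without DMSO A, DMSO B, tazemetostat B or tazemetostat C, and MRPS15 without DMSO A, DMSO B, tazemetostat A or tazemetostat C. With the GC trend of each library removed, MRPS36 stood at 0.18 (SE 0.08, edgeR adjusted p = 0.0622) and MRPL42 at 0.09 (SE 0.04, edgeR adjusted p = 0.0656), and neither passed. The number of higher members was 3 without DMSO A, 3 without DMSO B, 6 without tazemetostat A, 7 without tazemetostat B and 2 without tazemetostat C. Among all genes the number of higher ones was 3737 with all libraries and 2868, 2707, 3424, 2844 and 2793 in these fits, in that order. The number of lower members was 19 without tazemetostat A, where the median changed sign. In that fit 3788 of 15069 genes were lower, and the median of all genes was -0.02.

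The changes with tazemetostat followed GC content. The 9 lower members had a median transcript GC of 55.4%, the 11 higher members one of 44.4%, and the Spearman correlation between GC and change was -0.47 over the 76 members and -0.27 over 13522 genes with an annotated transcript. Leaving out tazemetostat A and combination B, 21 members were lower and 14 higher, and 4288 of 15002 genes were lower and 4399 higher. After the GC trend of each library was removed, an alternative chosen after seeing the data, 15 members were lower and 14 higher, beside 3893 and 3668 of 13522 genes. With total counts alone 7 were lower and 26 higher, beside 2110 and 4828 of 14874 genes.

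The combination against DMSO gave the widest changes. Of the members, 58 fell and 7 rose, while 71.0% of all genes passed, 34.5% lower and 36.5% higher. The median was -0.31, against 0.02 for all genes, and 67 of 76 lay below 0. The counts were 60 lower and 8 higher without tazemetostat A and combination B, and with total counts alone 36 lower and 8 higher. Among all genes the former gave 5234 lower and 5833 higher of 15002, and the latter 3947 and 6604 of 14874.

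MRPL12 was the most reduced member, at 135, 106 and 137 CPM, against 247, 246 and 235 CPM with DMSO. It was 1.92-fold lower (log2 change -0.94, SE 0.08, edgeR adjusted p = 4.58e-09), and -0.81 (SE 0.05) without the 2 libraries. MRPL4 was at 61.3, 51.4 and 59.1 CPM, 1.79-fold below DMSO (log2 change -0.84, SE 0.08, edgeR adjusted p = 7.52e-09). For both genes each combination library lay below each library of the 3 other groups.

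MRPL2 was at 40.1, 34.0 and 38.6 CPM (log2 change against DMSO -0.68, SE 0.07), and MRPS2 at 50.8, 44.0 and 44.7 CPM (-0.64, SE 0.07). MRPS16 was at 93.6, 86.0 and 91.9 CPM (-0.61, SE 0.06), and MRPL37, a large-subunit protein related to MRPS30, at 124, 115 and 115 CPM, against 174, 173 and 173 CPM with DMSO (-0.55, SE 0.06). These 4 had edgeR adjusted p-values of 2.04e-08 to 6.73e-08, and none overlapped with DMSO. MRPS12 was at 28.6, 20.8 and 30.04 CPM, with combination B lowest (log2 change -0.74, SE 0.11). Its change was -0.58 (SE 0.06) without tazemetostat A and combination B.

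**Figure D3:**
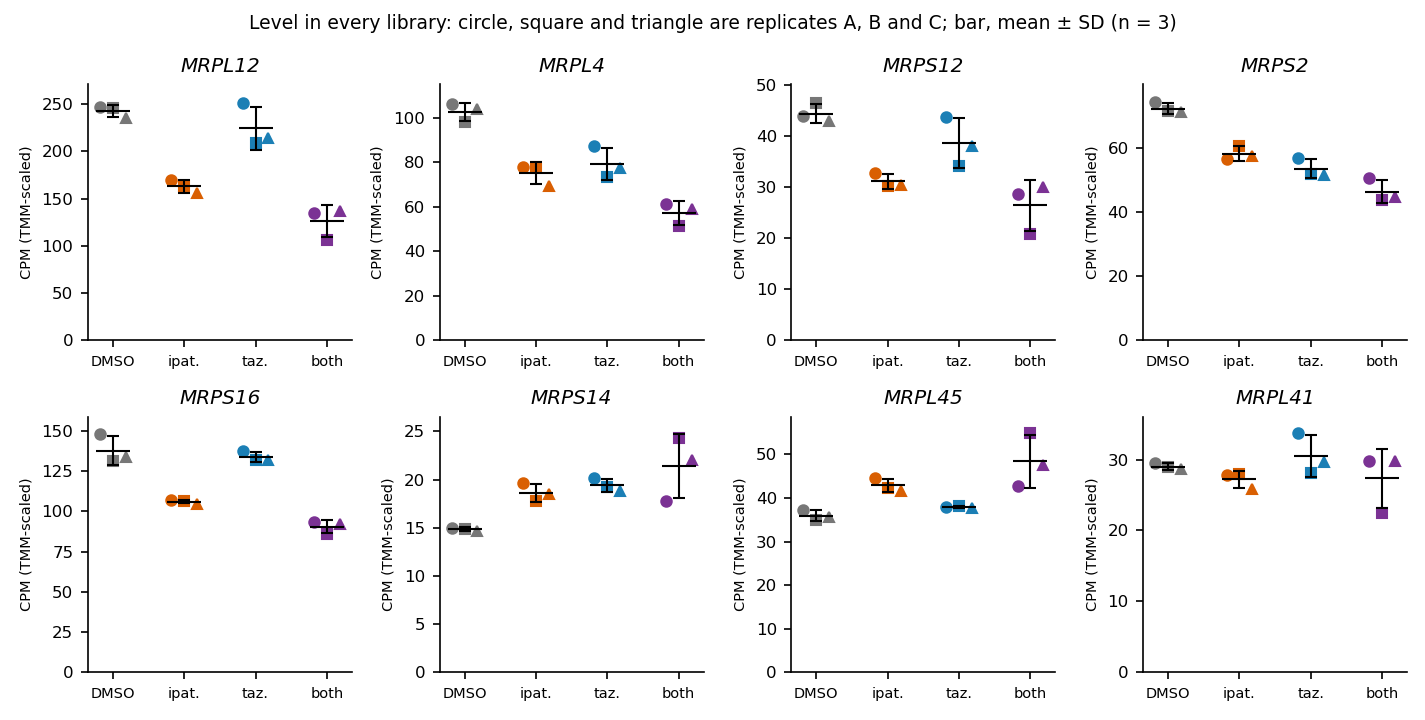
Each panel shows 1 gene, with CPM after TMM scaling on the y axis from 0 and the 4 groups on the x axis. Circles, squares and triangles are libraries A, B and C, and bars give the mean ± SD of 3. MRPL12 falls from 243 with DMSO to 163 with ipatasertib and 126 with the combination, MRPS14 and MRPL45 climb instead, and MRPL41 stays between 22.5 and 33.8 CPM in all libraries.

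Of the 7 that rose, MRPL45 reached 42.8, 54.8 and 47.7 CPM (log2 change 0.43, SE 0.08, edgeR adjusted p = 4.47e-05) and MRPS14 17.8, 24.4 and 22.1 CPM (log2 change 0.53, SE 0.09, edgeR adjusted p = 4.57e-05). In both, combination B was the highest library, and without it and tazemetostat A the changes were 0.36 (SE 0.06) and 0.45 (SE 0.08). MRPL43, a mitochondrial addition to the large subunit, went from 28.3, 27.4 and 28.4 CPM to 32.1, 31.8 and 34.5 CPM (log2 change 0.23, SE 0.07, edgeR adjusted p = 0.0089). MRPS33, at 43.1, 48.4 and 49.4 CPM against 39.6, 37.3 and 43.9 CPM, changed by 0.22 (SE 0.07), MRPS36 by 0.26 (SE 0.10) and MRPL34, at 46.3, 38.8 and 50.03 CPM against 40.7, 38.1 and 38.7 CPM, by 0.20 (SE 0.08). The groups overlapped for MRPS33, MRPS36 and MRPL34, whose edgeR adjusted p-values were 0.0104, 0.023 and 0.0331. Calls of MRPL43, MRPS33, MRPS36 and MRPL34 were lost without DMSO B, those of MRPS36 also without combination B or C, and that of MRPL34 also without DMSO C, combination A or combination C. Without DMSO B, 2 members were higher. MRPL10, the protein that anchors the stalk, was the seventh, at 40.8, 39.9 and 39.1 CPM against 37.1, 35.9 and 33.9 CPM with DMSO (log2 change 0.16, SE 0.07, edgeR adjusted p = 0.0404). Its call was lost without DMSO B, DMSO C or combination A (adjusted p from 0.113 to 0.161 in edgeR), with no filter on low counts and with only the libraries of the groups compared.

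By role, 39 of 49 large-subunit members fell and 4 rose, and 19 of 26 small-subunit members fell and 2 rose. In the central protuberance 7 of 8 fell, and in the tunnel exit 6 of 7 fell, all but MRPL45. In the stalk 2 of 5 fell and 1 rose. Of the 40 members without a named pseudogene or a larger exon overlap, 31 fell and 4 rose.

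The 3 paralogues of bacterial S18 were all lower with the combination. MRPS18A, which sits in the large subunit, was at 50.6, 52.4 and 50.5 CPM with DMSO and 42.4, 37.2 and 44.2 CPM with the combination (log2 change -0.31, SE 0.08). MRPS18B was at 131, 140 and 132 CPM (-0.39, SE 0.06). MRPS18C was at 9.94, 8.87 and 9.25 CPM with DMSO and 6.196, 4.799 and 8.09 CPM with the combination (-0.54, SE 0.14), without overlap but with a wide spread, and its exons overlap those of ABRAXAS1 by 78.9%. MRPS30 was at 32.1, 32.8 and 34.0 CPM with DMSO, at 28.6, 28.0 and 20.8 CPM with ipatasertib and at 22.8, 30.1 and 26.9 CPM with the combination (-0.31, SE 0.10). MRPL32, which is cut to its mature form by a protease of the inner membrane, was at 40.1, 41.7 and 46.1 CPM with DMSO and 28.0, 39.6 and 35.4 CPM with the combination (-0.31, SE 0.09). The edgeR adjusted p of these 5 ran from 3.53e-06 for MRPS18B to 0.0125 for MRPS30.

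With all libraries and TMM scaling, MRPL36, MRPL40, MRPL41, MRPL53, MRPS21 and MRPS24 passed the test in no comparison. Without tazemetostat A and combination B, MRPL53 passed in the combination against DMSO (0.16, edgeR adjusted p = 0.0476) and against ipatasertib (0.22, edgeR adjusted p = 0.0155). With the GC trend removed, MRPL40 (0.22), MRPL41 (0.15) and MRPL53 (0.17) passed with tazemetostat, and MRPL41 also with the combination (-0.14) and in the combination against tazemetostat (-0.29). MRPL36, MRPS21 and MRPS24 passed in neither of these fits. MRPL41 was at 29.5, 28.9 and 28.6 CPM in DMSO, 27.8, 28.0 and 25.9 CPM after ipatasertib, 33.8, 28.1 and 29.6 CPM after tazemetostat and 29.7, 22.5 and 29.8 CPM after the combination. Its highest value was tazemetostat A and its lowest combination B, and its transcript has the highest GC content of the members, 71.9%. MRPS21, the counterpart of bacterial S21, stayed between 54.6 and 62.6 CPM in all libraries. MRPL51, an abundant mitochondrial addition to the large subunit, was at 207, 208 and 217 CPM with DMSO and 171, 162 and 179 CPM with the combination (log2 change -0.31, SE 0.06, edgeR adjusted p = 0.000212); with either inhibitor alone it did not pass. Without the 2 libraries it passed with both, at -0.11 (SE 0.04, edgeR adjusted p = 0.0187) with ipatasertib and -0.18 (SE 0.05, edgeR adjusted p = 0.000836) with tazemetostat, and it also passed with both once the GC trend was removed.

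The combination against each inhibitor alone shows what the other added. Adding tazemetostat to ipatasertib lowered 17 members and raised none. Of all genes 39.1% passed, 17.3% lower and 21.8% higher, with a median of -0.08 for the members and 0.01 for all genes. MRPL4 had 78.1, 78.0 and 69.3 CPM with ipatasertib and 61.3, 51.4 and 59.1 CPM with the combination (log2 change -0.39, SE 0.08). MRPL2 changed by -0.36 (SE 0.07), from 49.5, 46.9 and 47.8 CPM, MRPS2 by -0.33 (SE 0.07), from 56.6, 60.9 and 57.7 CPM, and MRPL49, an abundant mitochondrial addition, by -0.30 (SE 0.06), from 163, 162 and 167 CPM to 143, 125 and 133 CPM. Each of the 4 was without overlap, and the edgeR adjusted p was 0.000467, 0.000663, 0.000702 and 0.00113.

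Beside the 0 higher members, 3 with a change above 0 had an unadjusted p below 0.05 in edgeR, and DESeq2 also called 0. Leaving out both deviating libraries, 30 members were lower and 3 higher, where 3327 of 15002 genes were lower and 3660 higher. Without combination A 3 members were higher, and without combination B 1. With the GC trend removed, 33 were lower and 1 higher, beside 3795 and 3460 of 13522 genes.

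Adding ipatasertib to tazemetostat lowered 59 members and raised 2. Of all genes 60.6% passed, 30.8% lower and 29.8% higher, with a median of -0.34 for the members and 0.00 for all genes. MRPL12 went from 251, 209 and 214 CPM to 135, 106 and 137 CPM (log2 change -0.83, SE 0.08, edgeR adjusted p = 4.8e-08). MRPL35 went from 85.7, 89.9 and 92.9 CPM to 56.6, 63.1 and 57.9 CPM (-0.60, SE 0.06), MRPS16 from 138, 132 and 132 CPM to 93.6, 86.0 and 91.9 CPM (-0.56, SE 0.06), and MRPL18 from 87.7, 82.9 and 83.2 CPM to 52.0, 55.4 and 56.8 CPM (-0.63, SE 0.07). MRPL18 is the counterpart of the bacterial protein that binds the 5S ribosomal RNA. The 2 that rose were MRPL45 (0.35, SE 0.07) and MRPL10 (0.28, SE 0.07), the latter from 35.6, 31.3 and 31.4 CPM to 40.8, 39.9 and 39.1 CPM. Without the 2 libraries 52 were lower and 4 higher, beside 4477 and 5243 of 15002 genes. Leaving out combination A or combination B alone also gave 4 higher.

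Ipatasertib against DMSO and the combination against tazemetostat use no library in common. All 41 members that fell in the first also fell in the second, which is 100% of 41 and 69.5% of 59. For all genes that fell with ipatasertib the share was 82.3% (3515 of 4269). In the second comparison 77.6% of the members but 30.8% of all genes fell, so these shares do not compare like with like. The same limit holds for the shares below. Both comparisons also come from 1 fit with a shared estimate of the spread. Of 11 members that rose and 9 that fell with tazemetostat against DMSO, 0 and 8 did so when it was added to ipatasertib, again in separate libraries. For all genes the shares were 64.7% of those that rose and 53.2% of those that fell. Since 0 members rose when tazemetostat was added to ipatasertib, against 21.8% of all genes, the 0 of 11 follows from that count. When tazemetostat A and combination B were left out, 47 of 53 fell in both comparisons of ipatasertib (88.7%, and 70.7% for all genes). For tazemetostat, 14 of 21 fell in both (66.7%, and 45.5% for all genes). Of 14 that rose, 1 rose (7.14%, and 54.8% for all genes) and 4 fell when it was added to ipatasertib.

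**Figure D4:**
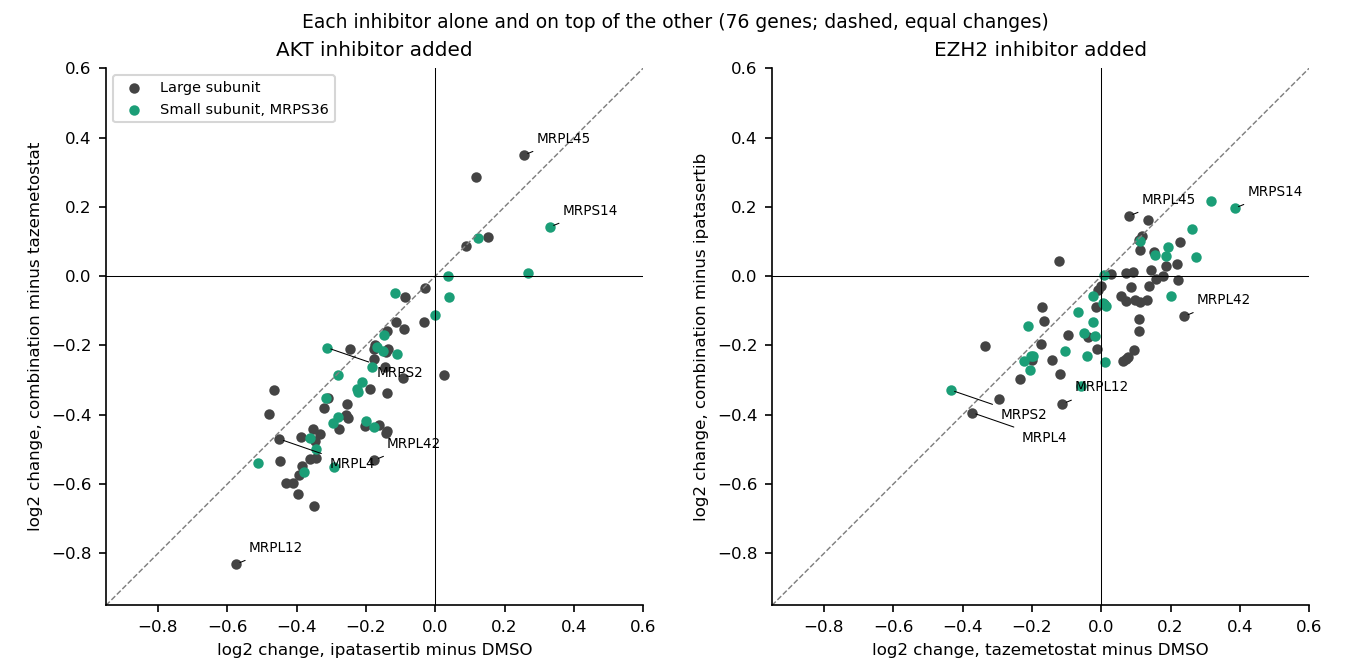
Each point is 1 of the 76 genes. On the left, the x axis is the log2 change with ipatasertib against DMSO and the y axis its change when added to tazemetostat. On the right, the same for tazemetostat alone and added to ipatasertib. On the dashed line both changes are equal. Most points on the left lie in the lower left part and below the line, and on the right many points with a rise on the x axis lie near or below 0 on the y axis.

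The interaction is the log2 change with the combination minus the sum of the changes with each inhibitor. No member passed, against 3.62% of all genes, 1.75% below 0 and 1.87% above. In edgeR 10 members had an unadjusted p below 0.05, and DESeq2 called 2 lower and 0 higher. The median of the members was -0.10, against 0.00 for all genes, and 68 of 76 lay below 0. This shift was not particular to the members. For the nuclear genes of respiratory chain subunits, described below, the median was -0.14 and 74 of 78 lay below 0. For cytosolic ribosomal protein genes the median was 0.03 and 29 of 77 lay below 0. The call depended on the 2 libraries. Without both of them 16 members were lower and 5 higher, beside 2201 and 2565 of 15002 genes. Leaving out combination B alone gave 8 lower, beside 1118 lower and 1325 higher of 15058 genes, and leaving out tazemetostat A alone gave 1, beside 499 and 547 of 15069. With the GC trend removed 9 were lower and none higher, beside 1007 and 880 of 13522 genes.

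MRPL42, named here after its values were seen, is a protein added in mitochondria with 67.1, 66.6 and 63.6 CPM with ipatasertib and 56.1, 68.9 and 57.3 CPM with the combination. Its interaction was -0.36 (SE 0.11, edgeR adjusted p = 0.0767), and -0.51 (SE 0.07, edgeR adjusted p = 1.71e-06) without the 2 libraries. With the GC trend removed it was -0.22 (SE 0.06, edgeR adjusted p = 0.0134). For MRPL12 the interaction was -0.26 (SE 0.12) with all libraries, -0.05 (SE 0.06) without the 2 and -0.35 (SE 0.06) with the GC trend removed.

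Mitochondrial ribosomal proteins whose symbols have another form were lower too. Of 7, none rose, and 5 fell after ipatasertib, 2 after tazemetostat and 6 after the combination, where the median was -0.60. PTCD3, an RNA-binding protein of the small subunit, was at 93.2, 90.0 and 96.7 CPM with DMSO, 75.03, 76.7 and 76.1 CPM with ipatasertib and 47.2, 61.3 and 53.5 CPM with the combination (log2 change -0.79, SE 0.08). AURKAIP1 changed by -0.69 (SE 0.10), GADD45GIP1 by -0.61 (SE 0.09) and ICT1, which frees stalled chains, by -0.60 (SE 0.08), each with the combination. MRP63 changed by -0.17 (SE 0.06) and DAP3, a GTP-binding protein of the small subunit, by -0.15 (SE 0.05). CHCHD1, at -0.15 (SE 0.07, edgeR adjusted p = 0.0755), did not pass. With total counts alone 3 fell with ipatasertib and 4 with the combination, and with tazemetostat none fell and 1 rose. Without tazemetostat A and combination B 4 fell with tazemetostat.

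Of 14 factors of mitochondrial translation, 5 fell and 1 rose with ipatasertib, 5 and 1 with tazemetostat and 8 and 3 with the combination, and with total counts alone the first 2 comparisons gave 2 lower and 2 higher each. Without tazemetostat A and combination B, 6 fell and 2 rose, 5 fell and 3 rose, and 9 fell and 1 rose. GFM1, the elongation factor that moves the ribosome along, was at 117, 120 and 125 CPM with DMSO, 79.2, 79.1 and 79.1 CPM with ipatasertib and 62.0, 74.3 and 66.2 CPM with the combination (log2 change -0.84, SE 0.07). TUFM, which brings the transfer RNAs, was at 220 ± 4.6 (SD, n = 3), 182 ± 5.1, 168 ± 9.2 and 140 ± 7.5 CPM with DMSO, ipatasertib, tazemetostat and the combination. MTIF3, an initiation factor, rose from 12.1 ± 0.59 to 17.9 ± 1.25, 15.5 ± 0.18 and 23.7 ± 2.8 CPM in the same order, with a log2 change of 0.97 (SE 0.09) in the combination.

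Of 21 assembly factors of the ribosome, 12 fell and 1 rose with ipatasertib, 11 and 1 with tazemetostat and 17 and 2 with the combination, with 6 and 2, 7 and 1, and 12 and 2 under total counts alone. FASTKD2, an RNA-binding factor of the large subunit, changed by -0.57 (SE 0.07) with ipatasertib and -0.78 (SE 0.07) with the combination. DHX30, an RNA helicase, changed by -0.44 (SE 0.06) and -0.63 (SE 0.07). YBEY, which acts on the small subunit, rose by 0.59 (SE 0.09) and 0.69 (SE 0.09). Of 17 mitochondrial aminoacyl-tRNA synthetases, which charge the transfer RNAs, 8 fell and 2 rose with ipatasertib, 10 fell with tazemetostat and 12 with the combination. Under total counts alone 6 fell and 2 rose, 8 fell and 1 rose, and 11 fell and 2 rose. LARS2, the leucine enzyme, was at 46.3 ± 1.5, 29.9 ± 1.2, 35.1 ± 1.9 and 20.8 ± 0.69 CPM with DMSO, ipatasertib, tazemetostat and the combination, with a change of -1.15 (SE 0.07) in the combination.

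Of 16 genes of mitochondrial transcription and its regulators, 8 fell and 2 rose with ipatasertib, 4 and 3 with tazemetostat and 13 and 2 with the combination, with 6 and 3, 3 and 4, and 11 and 2 under total counts alone. PPRC1, a coactivator of mitochondrial biogenesis, was at 92.6, 89.6 and 88.0 CPM with DMSO, 46.2, 47.0 and 50.2 CPM with ipatasertib and 42.9, 34.2 and 38.1 CPM with the combination (log2 change -1.23, SE 0.07). Its relative PPARGC1A moved the other way, from 4.34, 3.88 and 5.72 CPM to 11.3, 10.8 and 11.6 CPM and 14.9, 16.1 and 14.8 CPM (log2 change 1.72, SE 0.13). Neither gene's treated libraries overlapped with DMSO. MYC, whose product binds the E-box, was at 137 ± 0.97, 130 ± 3.7, 94.9 ± 2.4 and 81.9 ± 3.7 CPM in that order of groups. Its change with ipatasertib was -0.08 (SE 0.05, edgeR adjusted p = 0.247) and with tazemetostat -0.53 (SE 0.05, edgeR adjusted p = 2.17e-07).

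NRF1, a regulator of genes for mitochondrial proteins, changed by -0.53 (SE 0.07) with ipatasertib and -0.05 (SE 0.07, edgeR adjusted p = 0.594) with tazemetostat. Of the GABP factor that binds the ETS motif, GABPA rose by 0.27 (SE 0.09), 0.24 (SE 0.09) and 0.29 (SE 0.09) with ipatasertib, tazemetostat and the combination. GABPB1 changed by -0.41 (SE 0.10), 0.26 (SE 0.09) and -0.59 (SE 0.10). The 2 subunits thus moved in opposite directions with ipatasertib and with the combination.

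Genes of the cytosolic ribosome, which translates all other messengers of the cell, mostly rose with ipatasertib. Of 77 cytosolic ribosomal protein genes tested, 59 rose and 5 fell with ipatasertib, with a median of 0.31, and 60 rose and 7 fell with the combination, with a median of 0.39. With tazemetostat 10 rose and 4 fell, and without tazemetostat A and combination B 10 rose and 16 fell. Their summed share of gene counts was 2.88% ± 0.0208 (SD, n = 3) in DMSO, 3.91% ± 0.175 after ipatasertib, 3.12% ± 0.183 after tazemetostat and 4.24% ± 0.179 after the combination. These genes have many near-identical pseudogene copies, so single values are uncertain. The rise with ipatasertib and with the combination and the fall of the mitochondrial genes kept their directions under DESeq2's size factors and under total counts alone.

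Of 78 nuclear genes for respiratory chain subunits, the complexes that mitochondrial translation supplies, 12 rose and 11 fell with ipatasertib, 28 rose and 5 fell with tazemetostat and 16 rose and 18 fell with the combination. Their medians were 0.01, 0.12 and -0.03. With total counts alone 29 rose and 7 fell with ipatasertib, and 32 rose and 15 fell with the combination. Leaving out tazemetostat A and combination B, 23 rose and 16 fell with ipatasertib, 27 rose and 13 fell with tazemetostat, and 27 rose and 20 fell with the combination, where the median was 0.04. The difference between these lists was not tested.

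**Figure D5:**
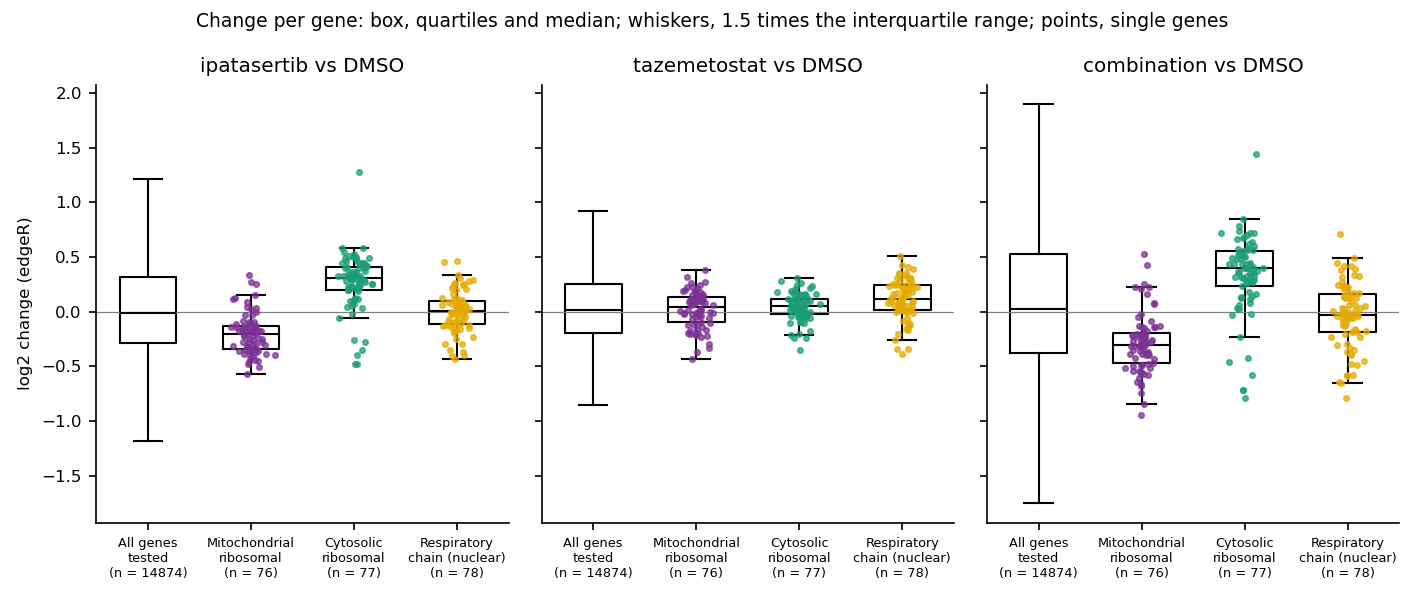
Boxes show the quartiles and median of the log2 change per gene, whiskers reach 1.5 times the interquartile range, and points are single genes. In each panel the order on the x axis is all 14874 genes, the 76 mitochondrial ribosomal, 77 cytosolic ribosomal and 78 nuclear respiratory chain genes. With ipatasertib and with the combination the mitochondrial ribosomal box lies below 0 (medians -0.20 and -0.31) and the cytosolic one above (0.31 and 0.39).

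Some of the members start next to a gene that is read in the opposite direction. In GENCODE v29, 19 of the 76 had such a head-to-head neighbour that was tested, with starts within 1000 bases. The share of all genes with such a neighbour is not given, so whether the members have them more often cannot be told. Of the 15 of these members that fell with the combination, the neighbour fell too in 9, rose in 2 and did not pass in 4. Among all genes 34.5% fell and 36.5% rose with the combination. Of the 9 that fell with ipatasertib, the neighbour fell too in 4, rose in 2 and did not pass in 3. Among all genes 28.7% fell and 25.4% rose with ipatasertib. Whether members and neighbours move together was not tested. MRPL18 shares its start region with TCP1, a subunit of the cytosolic chaperonin. With the combination the 2 genes changed by -0.52 (SE 0.07) and -0.82 (SE 0.07). MRPL46 and MRPS11 are each other's neighbours, 34 bases apart, so each is counted as a member and as a neighbour. They changed by -0.35 (SE 0.09) and -0.27 (SE 0.08) with the combination.

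The 2 pairs that parted were MRPL47 with NDUFB5 and MRPL50 with ZNF189. MRPL47, of the tunnel exit, was at 76.3, 74.3 and 81.2 CPM with DMSO, 61.4, 61.8 and 56.9 CPM with ipatasertib and 49.9, 68.5 and 58.5 CPM with the combination (log2 change -0.39, SE 0.08). NDUFB5, a subunit of respiratory complex I that starts 36 bases away, changed by 0.28 (SE 0.07) with ipatasertib and 0.45 (SE 0.07) with the combination. MRPL50 changed by -0.48 (SE 0.09) and ZNF189 by 0.51 (SE 0.09). The strand setting of the authors' counting is not given in the sources used here, so reads from overlapping ends of such pairs cannot be assigned.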

How the data were processed

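RNA from 12 libraries was analysed. The authors aligned and counted reads with STAR, SAMtools, HTSeq and DESeq2 on hg19, per the submitters' processing notes. Neither versions nor annotation nor strandedness were available from the sources used here. The authors deposited raw counts per gene, used as given. The 5 summary lines of reads assigned to no gene were left out. A second deposited table, of normalised signal made by the authors, was not tested. Its values equalled the counts divided by 1 size factor per library, within 1e-06, in 23202 of 23228 lines matched by symbol.

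Counts were fitted in R 4.3.3 with edgeR 4.0.16 (filterByExpr, TMM, 1 quasi-likelihood fit over all 12 libraries, no block). The common biological coefficient of variation was 0.0645. Benjamini-Hochberg adjustment ran over 14874 genes, with a threshold of 0.05. Each SE was obtained from the change and its F statistic, as |log2 change|/√F. The script was tested on simulated data. Depth sets the precision, and the limit that a count of 0 allows, 3 counts, came to 0.0600 to 0.134 CPM per library.

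Alternatives were DESeq2 1.42.0, its size factors in edgeR, total counts alone, no filter, a replicate block, only the groups compared, each library left out, and tazemetostat A and combination B left out. Removal of each library's trend on transcript GC (lowess span 0.3, 13522 genes) was added after seeing the data.

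Members and lists were chosen with earlier results of these data known. Named members were those with the smallest adjusted p, up to 6 per direction in each comparison with DMSO and up to 4 in each other comparison, plus MRPL12, MRPS12, MRPL41, MRPL32, MRPS18A, MRPS18B, MRPS18C, MRPS30, MRPS36, the 3 highest and 3 lowest by mean CPM, and subunits with other symbols. From other lists, up to 2 genes per direction were taken. Exon overlaps, neighbours and GC are from GENCODE v29 (GRCh38), which is not the authors' build, and served only for names, sizes and neighbours.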

Additional observations from a re-analysis of the deposited data

Results flagged for a closer look

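TFAM packs the mitochondrial genome and takes part in its transcription. It was the 1 gene of the lists of mitochondrial translation and its regulators whose interaction passed the test. TFAM was named after its values were seen. It was at 67.8, 71.1 and 74.8 CPM with DMSO, 66.0, 63.8 and 68.2 CPM with ipatasertib, 66.1, 78.1 and 75.1 CPM with tazemetostat and 47.6, 56.7 and 50.6 CPM with the combination. The 3 combination libraries lay below all others. Its interaction log2 change was -0.39 (SE 0.10, edgeR adjusted p = 0.0405, n = 3 per group). With all libraries, the fall with ipatasertib was thus larger in cells with tazemetostat than without, but the call depended on the libraries used. The adjusted p rose above 0.05 without any of the 3 DMSO libraries, any of the 3 ipatasertib libraries, tazemetostat B, tazemetostat C, combination A or combination C. Without tazemetostat A and combination B the change was -0.51 (edgeR adjusted p = 4.32e-06), and with the GC trend of each library removed -0.26 (edgeR adjusted p = 0.0034). No group of 4 or more libraries exists here, so single libraries were not tested as outliers.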

How the results depend on the processing

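Of the recalculated counts of members called, 140 stayed within 1.5 times the main count and 38 did not. With total counts alone, ipatasertib against DMSO gave 25 lower and 6 higher, tazemetostat 26 higher, the combination 36 lower, and the interaction 2 lower. The combination gave 1 higher against ipatasertib and 4 higher against tazemetostat. Only the libraries of the groups compared gave 6 higher with ipatasertib. Without tazemetostat A and combination B there were 5 higher with ipatasertib, 21 lower with tazemetostat, 30 lower and 3 higher in the combination against ipatasertib, 4 higher against tazemetostat, and 16 lower and 5 higher in the interaction. With the GC trend removed these were 4 higher, 15 lower, 33 lower and 1 higher, 4 higher, and 9 lower. No filter on low counts gave 26 lower in the combination against ipatasertib and 1 lower in the interaction, where DESeq2 gave 2 lower.

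Leaving out 1 library at a time gave 30 to 37 lower and 2 to 3 higher with ipatasertib, 8 to 19 and 2 to 8 with tazemetostat, and 52 to 57 and 2 to 7 with the combination. It gave 12 to 23 lower and 0 to 3 higher in the combination against ipatasertib, 51 to 56 and 2 to 4 against tazemetostat, and 0 to 8 lower with 0 higher in the interaction. The median change with tazemetostat ran from -0.0025, without tazemetostat A, to 0.0634. Of the 43 changes of single named members, none reversed in 602 recalculations and 29 recalculations ended a call, all of them of rises. The falls named were only those with the smallest adjusted p, while most rises were named, so this contrast follows from the choice. Among all members falls were lost too: with ipatasertib 41 were lower with all libraries and 30 to 37 with 1 left out. The causes were not tested, beyond the fewer samples or genes an alternative holds.

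Whether the replicate letters pair the libraries cannot be told from the labels or from these values. Of 18 same-letter pairs 4 correlated above 0.1 in their deviations from the group means (range -0.14 to 0.45). Pairs of other letters ran from -0.50 to 0.30. Tazemetostat and combination correlated at 0.45 for letter A, 0.35 for B and -0.10 for C. Of the 12 libraries 6 correlated best with their own letter. A replicate block gave 1 lower member in the interaction, and its other counts stayed within 1.5 times.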
